A study of Mus musculus with 9 samples.

Results

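The glucocorticoid receptor gene Nr3c1, the steroid-activating enzyme gene Hsd11b1 and 7 genes that glucocorticoids induce (Fkbp5, Tsc22d3, Sgk1, Errfi1, Cdkn1a, Gadd45b and Zbtb16) were followed in mouse liver RNA. The genes were listed by symbol and found by their identifiers, 9 of the 54393 genes in the deposited count table, and all 9 had enough counts to be tested. Livers came from C56Bl/6j mice on the purified diet AIN-76a. The 4 libraries of the antibiotics group are from mice whose gut bacteria were depleted with antibiotics that the gut does not absorb, and the 5 control libraries are from conventional mice without antibiotics. Both groups shared strain and diet, and the labels used here give no age, sex, dose, duration of treatment or hour at which the livers were taken. The study asked which liver transcripts differ between conventional and microbiota-depleted mice.

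Glucocorticoids are adrenal steroids that enter cells freely and bind the receptor encoded by Nr3c1, which waits in the cytoplasm in a complex with heat shock protein chaperones. The bound receptor moves to the nucleus, where it joins DNA at palindromic response elements and raises or lowers transcription of nearby genes. In liver the hormone drives glucose production and amino acid breakdown, and its blood level follows a strong daily rhythm. Hsd11b1 lets hepatocytes regenerate active hormone from its inert keto form. Among the induced genes, Fkbp5 encodes a co-chaperone that lowers the hormone affinity of the receptor, and Tsc22d3 encodes the leucine zipper protein GILZ.

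Libraries held 15422891 to 59179622 estimated counts. Antibiotics library 5 was the deepest of all and the other 3 antibiotics libraries were shallower than every control. The hepatocyte markers Alb, Apoa1, Ttr, Serpina1e, Cps1 and Hnf4a together made up 77780 to 91590 CPM (counts per 1e+06 mapped to genes) in each library. Kupffer cell and macrophage markers stood highest in control library 2, at 524 CPM summed over 10 genes against 178 to 253 in the other controls and 190 to 236 with antibiotics. Of 21 listed clock genes, 7 rose and 1 fell with antibiotics at an edgeR adjusted p under 0.05, beside 1.63% and 1.05% of all tested genes.

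None of the 9 genes differed between the groups past an adjusted p of 0.05 in edgeR's quasi-likelihood test, where 2.68% of the 14873 tested genes did (1.63% higher and 1.05% lower with antibiotics). The nearest was Fkbp5, which was higher in every antibiotics library than in any control (adjusted p = 0.0661). DESeq2 called 1 of the 9, Fkbp5, against 7.28% of genes, and limma-voom 0 against 2.78%. At an unadjusted p under 0.05, edgeR had 1 of the 9, also Fkbp5, where 18.5% of all genes lay below that level (9.6% higher and 8.87% lower). Groups did not overlap in 1 of the 9, Fkbp5 again, beside 8.88% of all genes (4.59% higher and 4.29% lower). The median log2 fold change (antibiotics over control) of the 9 was -0.17, beside -0.0073 for all tested genes, with 3 positive and 6 negative. Each of these counts is close to its background share, so no shift of the 9 genes as a set is reported and they are described by their values.

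**Figure D1:**
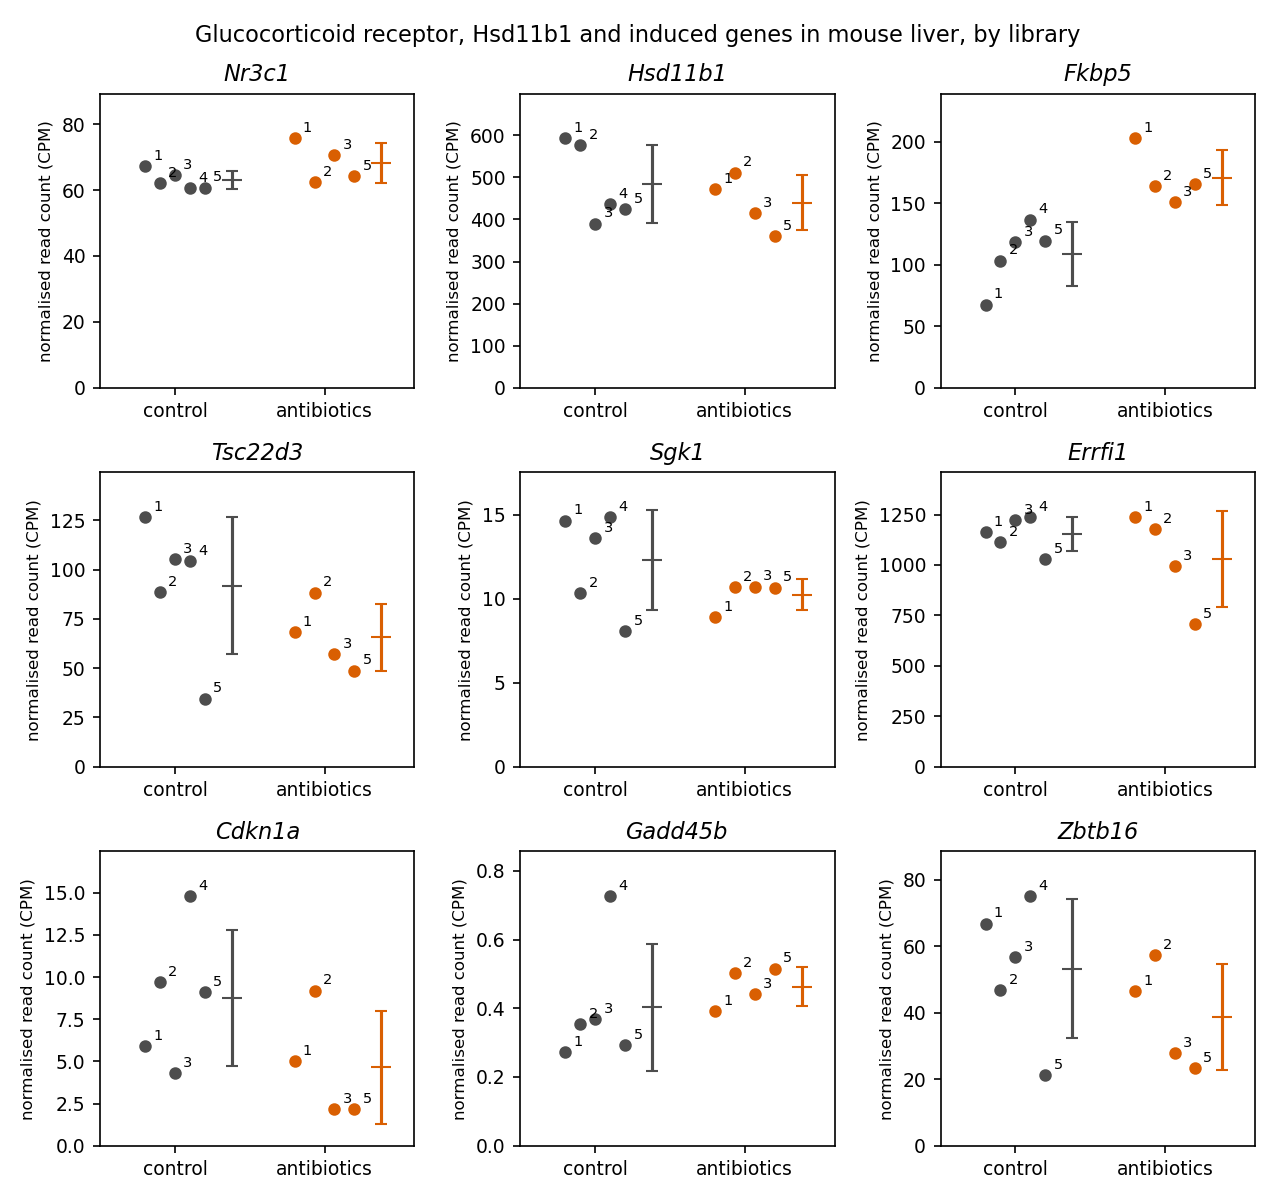
Normalised read count (CPM, vertical axes from 0) of each of the 9 genes, with 1 point per library, the library number beside it, and the group mean with its SD to the right. Only in the Fkbp5 panel do the groups stand apart, with 151 CPM as the lowest antibiotics value and 137 CPM as the highest control.

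The receptor itself was at nearly the same level in all livers. Nr3c1 (ENSMUSG00000024431.15, chromosome 18, 39410545 to 39519421, minus strand, GRCm38) measured 67.2, 62.2, 64.6, 60.6 and 60.7 CPM in control libraries 1 to 5 and 75.7, 62.4, 70.7 and 64.2 CPM in antibiotics libraries 1, 2, 3 and 5. Antibiotics libraries 1 and 3 lay above every control and the other 2 within the control range. The log2 fold change was 0.11 ± 0.07 (SE, adjusted p = 0.444), with a 95% interval from -0.05 to 0.27. Its spread within groups, an SD of 0.10 on the log2 scale, was at percentile 10.9 of all tested genes, so Nr3c1 was among the steadier transcripts of the liver. Nr3c2, the mineralocorticoid receptor gene, which also binds glucocorticoids, measured 9.01 ± 1.65 CPM in controls (SD, n = 5) and 7.61 CPM on average with antibiotics (adjusted p = 0.606).

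Enzymes that set the hormone level inside the cell were likewise not separated by treatment. Hsd11b1 (ENSMUSG00000016194.14, chromosome 1, 193221634 to 193264075, minus strand) measured 593, 576, 390, 436 and 424 CPM in controls and 472, 511, 416 and 361 CPM with antibiotics. Control libraries 1 and 2 were the highest and antibiotics library 5 the lowest, and the groups overlapped (log2 fold change -0.14 ± 0.15, SE, adjusted p = 0.667). H6pd, which supplies the NADPH that Hsd11b1 uses, had 441 ± 39.7 CPM in controls (log2 fold change -0.16 ± 0.09). Hsd11b2, which inactivates the hormone in kidney, had at most 1 count in any library. Of the 10 genes fixed for glucocorticoid metabolism and transport, 9 could be tested. With edgeR 0 passed and 3 had an unadjusted p under 0.05, all higher with antibiotics (18.5% of all genes did, 9.6% higher). DESeq2 called 1, Akr1d1, beside 7.28% of all genes. Akr1d1, a steroid reductase that clears glucocorticoids and also serves bile acid synthesis, averaged 82.0 ± 27.0 CPM in controls and 132 ± 20.6 CPM (SD, n = 4) with antibiotics, a log2 fold change of 0.68 ± 0.22 (adjusted p = 0.124 with edgeR, 0.0312 with DESeq2 and 0.0473 in edgeR with the replicate number as a block). Those were the only 2 of 18 alternatives in which Akr1d1 passed. It passed in 0 of the 9 edgeR fits that left out 1 library (0.0667 to 0.275). Abcb1a, an efflux pump that carries glucocorticoids, and Srd5a1, another steroid reductase, had log2 fold changes of 0.66 ± 0.21 and 0.27 ± 0.11, and neither passed.

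Fkbp5 showed the clearest separation. The gene (ENSMUSG00000024222.17, chromosome 17, 28399094 to 28517527, minus strand) measured 67.6, 103, 118, 137 and 119 CPM in controls and 203, 164, 151 and 166 CPM in antibiotics libraries 1, 2, 3 and 5. All 4 antibiotics values lay above all 5 controls, with the largest gap between control library 1, the lowest, and antibiotics library 1, the highest. Means were 109 ± 26.0 CPM (SD, n = 5) and 171 ± 22.2 CPM (SD, n = 4), a 1.57-fold difference (log2 fold change 0.65 ± 0.17, SE, 95% interval 0.28 to 1.02). The p-value of 0.00256 ranked 574 among 14873 genes, and after adjustment it was 0.0661. An exact permutation test over every division of the 9 libraries into 5 and 4 gave p = 0.0159 (two-sided, unadjusted), where the smallest value possible is 0.00794. Adjusted p ran from 0.00712 to 0.179 over 18 alternatives. Fkbp5 passed with DESeq2 (0.00712) and without a filter on low counts (0.0475), and in none of the 9 edgeR fits that left out 1 library (0.0546 to 0.179). All 18 alternatives kept it higher with antibiotics, at log2 fold changes from 0.52 to 0.76.

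Of 23 chaperones and cofactors of the receptor, Fkbp5 included, 0 passed with edgeR, 6 had an unadjusted p under 0.05 (18.5% of all genes did) and DESeq2 called 5 (7.28% of all genes). Of the 6, 1 was higher and 5 were lower with antibiotics, beside 9.6% and 8.87% of all genes. Groups did not overlap for 1 gene that was higher with antibiotics, Fkbp5, and 1 that was lower, the coactivator gene Ncoa1, beside 4.59% and 4.29% of all genes. The median log2 fold change was -0.09, with 6 positive and 17 negative. Hsp90aa1, the inducible HSP90 that holds the unbound receptor, measured 167 to 203 CPM in controls and 122 to 167 CPM with antibiotics (log2 fold change -0.35 ± 0.10, adjusted p = 0.0892). Stip1, which passes the receptor from HSP70 to HSP90, had a log2 fold change of -0.33 ± 0.10 and Dnajb1, an HSP40 co-chaperone, of -0.50 ± 0.16. Those 3 and Hsp90ab1 were the genes that DESeq2 called lower, and Fkbp5 was the 1 called higher. Fkbp4, the co-chaperone with the opposite action to Fkbp5, had an edgeR adjusted p of 0.754. It was chosen after its values were seen, as were Hsp90ab1 and Ncoa1.

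Clock genes were among those that moved with the groups in which Fkbp5 was high. Dbp, a clock output factor, rose from 63.6 ± 7.50 CPM to 112 ± 14.3 CPM (adjusted p = 0.00767), and Usp2, a clock-driven deubiquitinase, rose from 22.2 to 48.6 CPM. Nfil3, a repressor that opposes Dbp, fell by 0.67 on the log2 scale. Summed over 21 clock genes the level was 816 to 1026 CPM in controls and 1040 to 1126 CPM with antibiotics, with no overlap. The sum pools genes that went in opposite directions, 13 with positive and 8 with negative log2 fold changes. It is weighted to the abundant ones and does not show a general rise. Per1, which both the clock and the glucocorticoid receptor drive, measured 23.4 to 47.5 CPM in controls and 35.0 to 39.5 CPM with antibiotics (log2 fold change 0.15 ± 0.18, adjusted p = 0.698). The part that time of day had in the Fkbp5 values was not tested.

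Tsc22d3 and Zbtb16 were lower on average with antibiotics, but most of their variation lay between libraries of 1 group. Tsc22d3 (ENSMUSG00000031431.13, chromosome X, 140539528 to 140600659, minus strand) measured 127, 88.7, 105, 104 and 34.5 CPM in controls and 68.5, 88.4, 57.2 and 48.8 CPM with antibiotics. Control library 5 was the lowest of all 9, below each antibiotics library, and the other 4 controls were the 4 highest. The log2 fold change was -0.49 ± 0.30 (SE, 95% interval -1.15 to 0.17, adjusted p = 0.424). Without control library 5 it was -0.70 (adjusted p = 0.0549). Over all 9 omissions of 1 library it ran from -0.70 to -0.34, with edgeR adjusted p up to 0.636. Zbtb16 (ENSMUSG00000066687.5, chromosome 9, 48654297 to 48836222, minus strand), a zinc finger repressor also known as PLZF, measured 66.8, 46.7, 56.8, 75.0 and 21.2 CPM in controls and 46.5, 57.3, 27.9 and 23.4 CPM with antibiotics. Control library 5 was again the lowest and antibiotics library 5 the next, and the antibiotics values all lay inside the control range (log2 fold change -0.47 ± 0.34, adjusted p = 0.499).

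Their profiles over the libraries ran close together. With each gene centred on its own mean, the log2 CPM of Tsc22d3 and Zbtb16 differed by a root mean square of 0.20 over the 9 libraries. That was the smallest difference among the 36 pairs of the 9 genes, and Zbtb16 held rank 3 for nearness to Tsc22d3 in the 9245 genes averaging 5 CPM or more, whose median difference from Tsc22d3 was 0.60. Nearest of all was Ppargc1a, the coactivator of the fasting response in liver (0.15), then Trp53inp1, a stress-response gene of the Trp53 pathway (0.18), and Mcc held rank 4 (0.21). Tat, the tyrosine aminotransferase long used as a marker of glucocorticoid action in liver, held rank 5 (0.22). Tat averaged 2191 ± 1030 CPM in controls and 1346 ± 328 CPM with antibiotics (log2 fold change -0.70 ± 0.37, adjusted p = 0.340). Of the 30 other glucocorticoid-induced genes, 26 could be compared in this way, at ranks from 1 to 9237. The difference from Tsc22d3 was below the median over all genes for 19 of them and above it for 7, Igfbp1, Mt1 and Mt2 included. Nr3c1, whose level was nearly the same in all livers, also lay below that median (0.58). A place below it therefore need not mean a shared profile. In Tsc22d3, Zbtb16, Ppargc1a and Tat alike, control library 5 was lowest and antibiotics library 5 second lowest, and control library 1 or 4 was highest. Nearness to Tsc22d3 over these libraries groups the other genes with it, so the shared extremes are not a separate result. Fkbp5 ranked 9052 by the same measure, with values in control library 5 and antibiotics library 5 inside the range of their groups.

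Both libraries low in these genes carry the number 5 in the labels, which do not say what the number stands for. Antibiotics library 5 was the deepest and control library 5 the shallowest control. Mitochondrially encoded mRNAs, 13 genes that also reflect RNA quality, summed to 44895 CPM in control library 5 and 49480 CPM in antibiotics library 5, each the lowest of its group (others 49161 to 65301 CPM in controls and 64249 to 73733 CPM with antibiotics). Their part in the low values was not tested. Zbtb16 also marks natural killer T cells, and 12 T and NK cell markers summed to 3.01 CPM in control library 5, the lowest of all for these markers as for Zbtb16, and to 11.0 CPM in control library 2, the highest, where Zbtb16 held rank 5 of the 9 libraries. Their part in the Zbtb16 values was not tested. In whole liver, fewer cells of a type and less RNA per cell cannot be told apart.

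**Figure D2:**
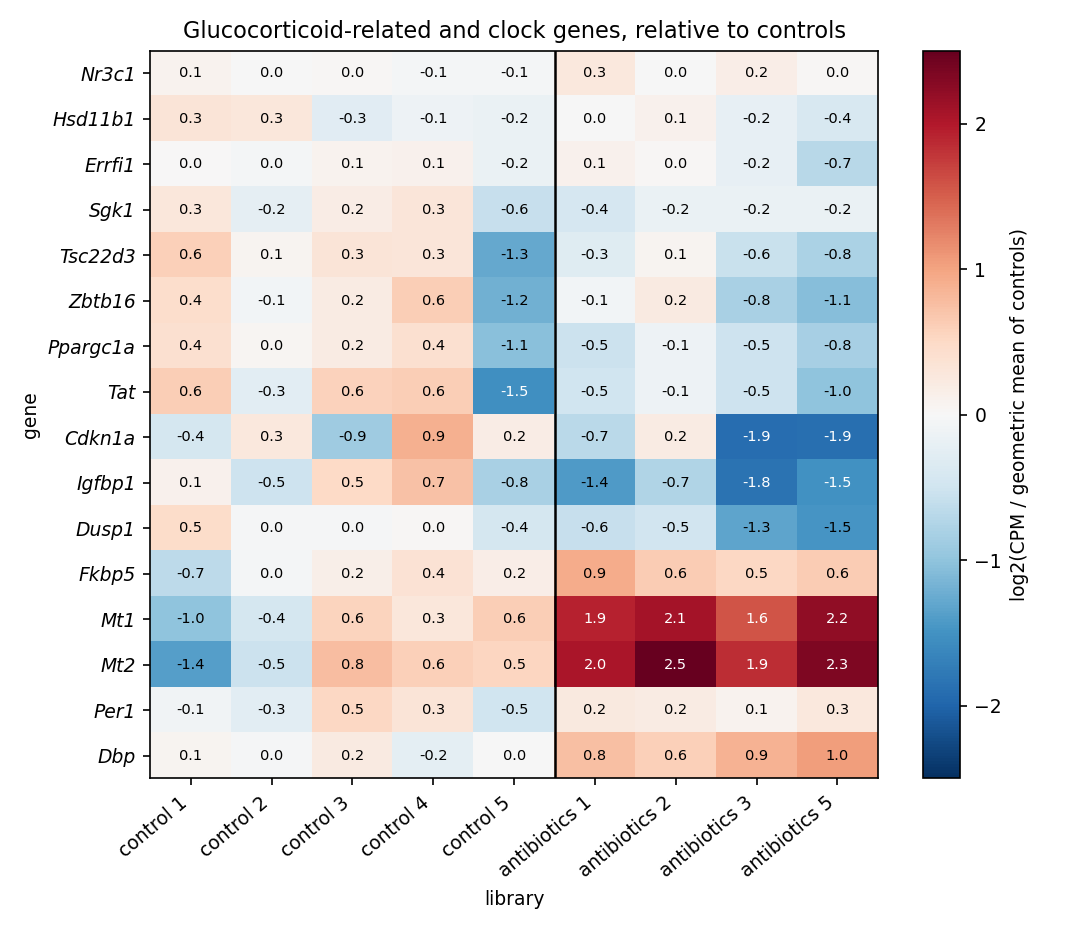
Level of 16 genes (rows) in the 9 libraries (columns), as log2 of CPM over the geometric mean of the controls, red for higher and blue for lower; the black line divides the groups. Tsc22d3 and genes near it in profile (Zbtb16, Ppargc1a and Tat) share low values in control library 5 and antibiotics library 5. Fkbp5, Mt1, Mt2, Dbp and Per1 are above the control mean in all 4 antibiotics libraries, Per1 by at most 0.26 and inside the control range.

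Sgk1 (ENSMUSG00000019970.15, chromosome 10, 21882184 to 21999903, plus strand) encodes a kinase that regulates ion channels and was first found as a serum- and glucocorticoid-induced transcript. It measured 14.6, 10.3, 13.6, 14.8 and 8.08 CPM in controls and 8.89, 10.7, 10.7 and 10.7 CPM with antibiotics. Control libraries 1, 3 and 4 were above all antibiotics libraries, and control libraries 2 and 5 were not. The log2 fold change was -0.26 ± 0.17 (SE, adjusted p = 0.444). Of 9 genes for SGK kinases, their substrates and controls, 1 rose and 1 fell, beside 1.63% and 1.05% of all tested genes. Scnn1a, a subunit of the epithelial sodium channel, averaged 14.0 ± 2.08 CPM in controls and rose to 21.3 ± 3.85 CPM (0.59 ± 0.13 on the log2 scale, adjusted p = 0.0439). Nedd4l, the ubiquitin ligase that removes that channel from the membrane and that SGK1 inhibits, averaged 49.0 ± 7.81 CPM in controls and fell to 29.7 ± 8.18 CPM (-0.73 ± 0.17, adjusted p = 0.0474). When single libraries were omitted, each of the 2 kept its call in 2 of 9 fits, with adjusted p from 0.0436 to 0.116 for Scnn1a and from 0.0214 to 0.141 for Nedd4l, and the block put Nedd4l at 0.0724.

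Promoter sequence was examined because several of these genes are direct receptor targets, and 3 windows are shown for contrast: that of Sgk1 with a complete element, that of Tsc22d3 with a single arm of it and that of Fkbp5 with neither. Nr3c1 and Zbtb16 were not part of the search, so its counts say nothing of them. RefSeq windows on GRCm38.p6, from 250 bases before to 50 after a start site, were used for 7 of the 9 genes, 16 in all. They were searched on both strands for a complete palindromic response element (AGAACA, then any 3 bases, then TGTTCT), for the looser core that lies within it (GNACA, any 3 bases, TGTNC), and for a single arm, AGAACA or TGTTCT, of which each complete element holds 2. The complete element occurred in 1 of the 16 windows, at an internal start of Sgk1 (chr10:21993640-21993939, plus strand), beginning 189 bases before the start. It was present in 3 of all 32851 windows (0.00913%), the core in 0.475% and the single arm in 19.0%. A single arm was found in 4 of the 16 windows, 3 of them of Sgk1 and 1 of Tsc22d3 (chrX:140600473-140600772, minus strand). The Fkbp5 window (chr17:28486100-28486399, minus strand) held none of these letters, which says nothing of elements elsewhere in the gene. Gene counts do not tell the 6 RefSeq starts of Sgk1 apart. The sequences run 5′ to 3′ on the strand of the gene, and capitals mark the arms AGAACA and TGTTCT, with the 3 bases between the arms of a complete element in lower case.
Sgk1: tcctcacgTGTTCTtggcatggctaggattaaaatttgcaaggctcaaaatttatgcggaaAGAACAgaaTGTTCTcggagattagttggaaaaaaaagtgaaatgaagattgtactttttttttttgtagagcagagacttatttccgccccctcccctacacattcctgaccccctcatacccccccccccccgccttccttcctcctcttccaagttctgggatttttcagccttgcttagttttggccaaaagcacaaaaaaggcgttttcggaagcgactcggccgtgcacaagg
Tsc22d3: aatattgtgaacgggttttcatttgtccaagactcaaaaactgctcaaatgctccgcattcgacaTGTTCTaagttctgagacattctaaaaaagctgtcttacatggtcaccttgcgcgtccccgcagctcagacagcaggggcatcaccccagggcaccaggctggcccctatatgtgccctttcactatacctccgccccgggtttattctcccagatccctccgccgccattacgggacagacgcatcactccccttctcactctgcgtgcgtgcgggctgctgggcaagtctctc
Fkbp5: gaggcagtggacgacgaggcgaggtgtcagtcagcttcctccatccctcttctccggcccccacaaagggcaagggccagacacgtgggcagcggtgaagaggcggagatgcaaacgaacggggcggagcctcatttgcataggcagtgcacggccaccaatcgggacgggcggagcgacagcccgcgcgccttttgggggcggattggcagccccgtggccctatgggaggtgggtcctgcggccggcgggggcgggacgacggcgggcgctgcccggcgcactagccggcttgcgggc

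Errfi1 (ENSMUSG00000028967.10, chromosome 4, 150853919 to 150868892, plus strand) encodes MIG6, a feedback inhibitor of the EGF receptor, and was the most abundant of the 9 transcripts. It measured 1163, 1113, 1224, 1236 and 1029 CPM in controls and 1235, 1178, 993 and 707 CPM in antibiotics libraries 1, 2, 3 and 5. Antibiotics libraries 3 and 5 lay below every control while library 1 matched the highest one. The log2 fold change was -0.17 ± 0.15 (SE, adjusted p = 0.593), and without antibiotics library 5 it was -0.02. In the EGF receptor group 1 of 10 tested genes passed, beside 2.68% of all tested genes. Tgfa, a ligand of that receptor, averaged 23.0 ± 2.59 CPM in controls and fell to 17.2 ± 0.849 CPM (-0.41 ± 0.09 on the log2 scale, adjusted p = 0.0397). Omission of single libraries left its call in 2 of 9 fits (0.0406 to 0.109).

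Cdkn1a and Gadd45b, both growth arrest genes that stress as well as glucocorticoids induce, were too variable or too low for a clear comparison. Cdkn1a (ENSMUSG00000023067.14, chromosome 17, 29090976 to 29100727, plus strand), an inhibitor of cyclin-dependent kinases, measured 5.93, 9.69, 4.32, 14.8 and 9.10 CPM in controls and 5.03, 9.20, 2.15 and 2.17 CPM with antibiotics. Antibiotics libraries 3 and 5 lay below every control and libraries 1 and 2 within the control range. Its log2 fold change, -0.97 ± 0.46 (SE, 95% interval -1.98 to 0.03, adjusted p = 0.284), was the largest in size of the 9, and its within-group spread was at percentile 97.1 of all genes. Without antibiotics library 2 the log2 fold change was -1.56 (adjusted p = 0.107). Over all 9 omissions of 1 library it ran from -1.56 to -0.68, with edgeR adjusted p from 0.107 to 0.508. Exons of Cdkn1a overlap AC167363.2 on the opposite strand over 273 bases, and that gene had at most 1 count. Gadd45b (ENSMUSG00000015312.9, chromosome 10, 80930073 to 80932204, plus strand), a stress sensor, had 6 to 32 counts per library. It measured 0.272, 0.353, 0.368, 0.726 and 0.294 CPM in controls and 0.392, 0.502, 0.442 and 0.515 CPM with antibiotics. Control library 4 was the highest and the other 4 controls lay below all antibiotics libraries (log2 fold change 0.21 ± 0.34, adjusted p = 0.796). At this depth the 95% interval ran from -0.54 to 0.95.

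Relatives of these genes gave 1 call. Among 15 genes of the Trp53 pathway, Cdkn1a included, 1 fell, beside 1.05% of all tested genes. Negative log2 fold changes were seen in 12 of the 15 (median of the 15, -0.24). An unadjusted edgeR p under 0.05 was found for 6, all lower with antibiotics (18.5% of all genes did, 8.87% lower). Sesn2, a stress-induced regulator of amino acid sensing, averaged 11.4 ± 1.67 CPM in controls and fell to 7.27 ± 0.619 CPM (-0.65 ± 0.12 on the log2 scale, adjusted p = 0.0230). Omission of single libraries left its call in 6 of 9 fits (0.0223 to 0.0760), and the block put it at 0.0745. Bax, a promoter of apoptosis, measured 13.5 to 18.0 CPM in controls and 11.1 to 12.5 CPM with antibiotics, and its groups did not overlap (-0.36 ± 0.10 on the log2 scale, adjusted p = 0.0872 with edgeR and 0.0425 with DESeq2). Non-overlapping groups with antibiotics lower were seen in 2 of the 15 genes, Bax and Sesn2, beside 4.29% of all genes. Mdm2, the ligase that degrades the Trp53 protein, did not pass with edgeR on all libraries (-0.30 ± 0.10, adjusted p = 0.125). It passed in 1 of 18 alternatives, without control library 5 (0.0478), and its adjusted p ran up to 0.287 in the others. In the growth arrest group of 8 genes 0 passed with edgeR and 2 had an unadjusted p under 0.05, both higher with antibiotics (18.5% of all genes did, 9.6% higher). Those were Gadd45a, which DESeq2 and limma-voom called higher (3.53 to 5.23 CPM with antibiotics against at most 3.49 CPM in controls, edgeR adjusted p = 0.0661), and Cdkn1c (log2 fold change 0.85 ± 0.25, edgeR adjusted p = 0.0985).

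Other genes known to be induced by glucocorticoids went in both directions. Of 30 such genes, 2 rose and 1 fell with edgeR, where 2.68% of all tested genes passed. An unadjusted edgeR p under 0.05 was found for 10 (2 higher and 8 lower), beside 18.5% of all genes (9.6% higher and 8.87% lower). The median log2 fold change of the 30 was -0.19, with 10 positive and 20 negative. The metallothioneins Mt1 and Mt2, which glucocorticoids and zinc induce, rose by 1.85 ± 0.28 and 2.01 ± 0.35 on the log2 scale. Igfbp1, a hepatic insulin-like growth factor binding protein that insulin represses and glucocorticoids induce, fell from 76.0 ± 32.5 to 28.0 ± 9.66 CPM (-1.44 ± 0.32, adjusted p = 0.0404, and 0.108 with the block). Dusp1, a phosphatase through which glucocorticoids restrain MAP kinases, averaged 27.5 ± 6.05 CPM in controls and 14.5 ± 4.95 CPM with antibiotics (log2 fold change -0.94 ± 0.22), and its groups did not overlap. Its adjusted p was 0.0508 with edgeR, 0.0306 with the block, 0.0366 with limma-voom and 0.00155 with DESeq2, and it passed in 8 of the 18 alternatives. The count of 3 became 0 without antibiotics library 5, 1 without antibiotics library 1 or 3 and 6 without control library 5, and it was 5 with DESeq2 and 5 after thinning all libraries to the smallest total.

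**Figure D3:**
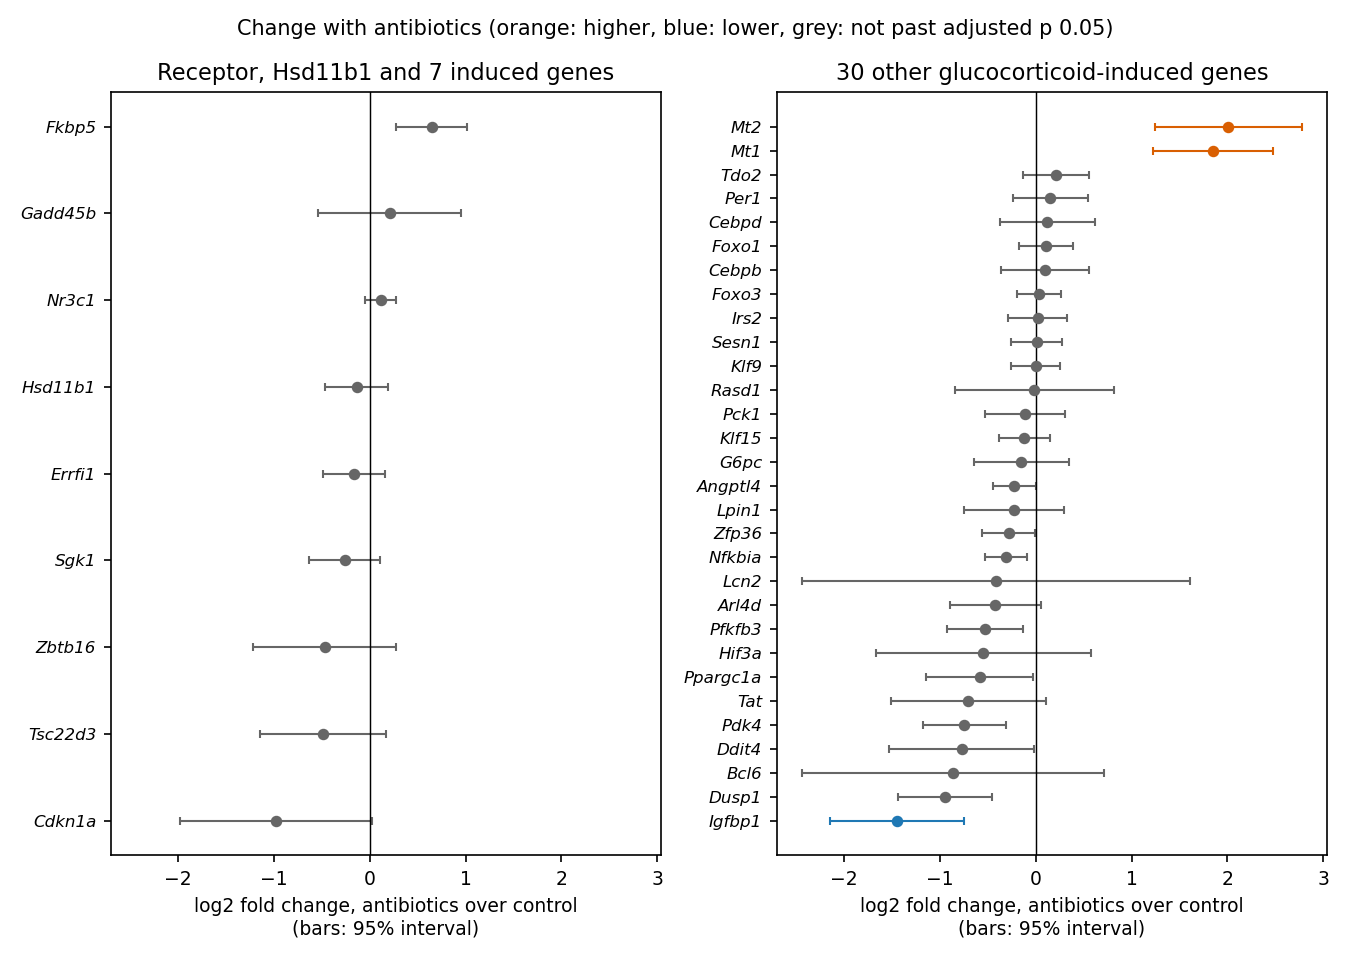
Log2 fold change (antibiotics over control, horizontal axis) with its 95% interval for the receptor, Hsd11b1 and the 7 induced genes (left) and for 30 other glucocorticoid-induced genes (right), each panel ordered by value. Colour marks the 3 genes past an adjusted p of 0.05, Mt1 and Mt2 higher and Igfbp1 lower; all 9 on the left are grey, and only the interval of Fkbp5 there leaves out 0.

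Levels of the 9 genes, compared per kilobase of exon, ranged from Errfi1 down to Gadd45b. Exon length here merges the exons of every annotated transcript of a gene, which can exceed the length of the transcripts present. The order therefore depends in part on the annotation. In controls Errfi1 had 322 ± 23.7 CPM per kilobase (SD, n = 5) and Hsd11b1 114 ± 22.0, and each stood above the next gene in all 9 libraries. Tsc22d3 (21.2 ± 8.01), Fkbp5 (11.5 ± 2.74), Zbtb16 (10.1 ± 3.95) and Nr3c1 (8.21 ± 0.366) followed, and in each neighbouring pair of these the order held in 4 of 5 controls, so their spreads overlapped. With antibiotics, Tsc22d3 was above Fkbp5 in 1 of 4 libraries and Zbtb16 above Nr3c1 in 1 of 4. Sgk1 (2.51 ± 0.606) and Cdkn1a (2.47 ± 1.13) could not be ordered, with Sgk1 higher in 2 of 5 controls, and Gadd45b was lowest in all 9 libraries (0.253 ± 0.116 in controls).

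Genes with the profile nearest to Nr3c1 and Fkbp5 were sought in the same way as for Tsc22d3. For Nr3c1 these were Gosr1, Aco1, Lmbrd1 and Snw1, with root mean square differences of 0.05 (log2, 9 libraries) against a median of 0.18 over 9245 genes. Nearness to Nr3c1 fixes how these genes compare between the groups, so no test is given for them. For Fkbp5 they were Rhbdd2, Zbed5, Slc12a9 and Mapk1ip1, with differences from 0.18 to 0.21 against a median of 0.47. The groups did not overlap in Fkbp5, so a like difference is part of what chose these 4 genes and none is given as a result.

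**Figure D4:**
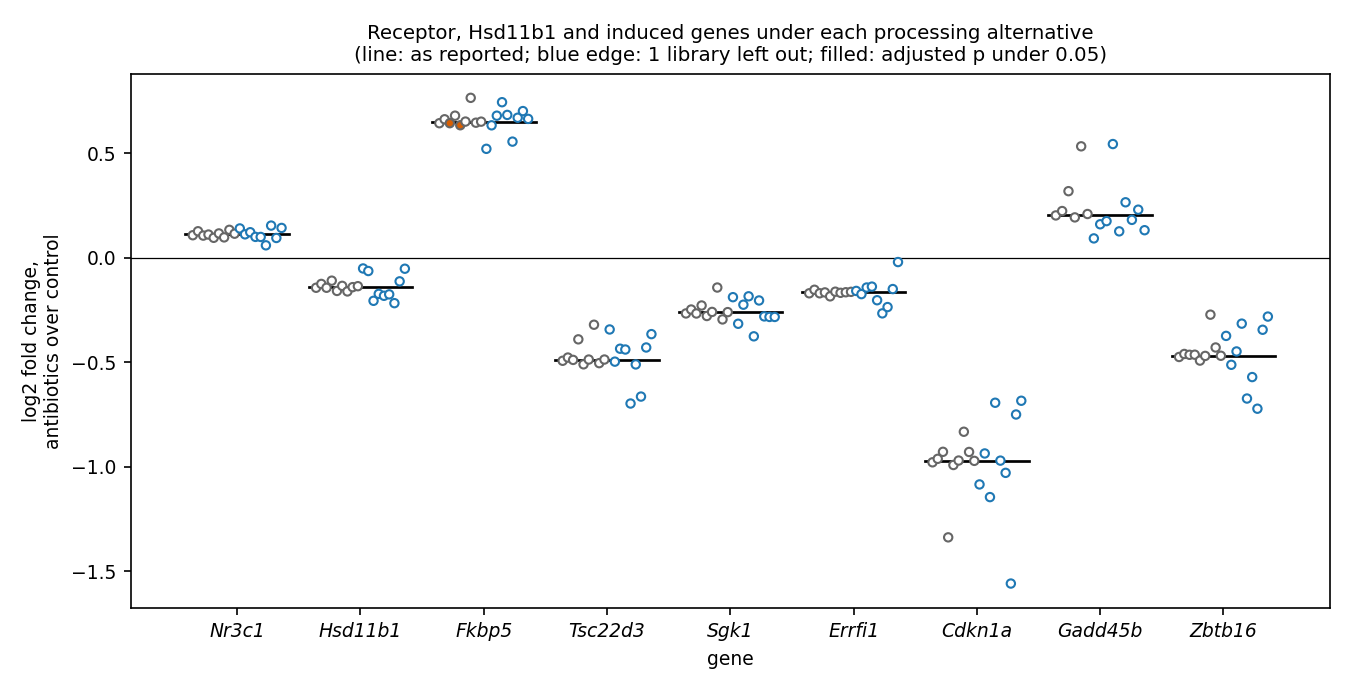
Log2 fold change (antibiotics over control, vertical axis) of the 9 genes under 18 processing alternatives (15 for Gadd45b), with the reported value as a line. Points with a blue edge leave out 1 library; the 2 filled points, both Fkbp5, passed an adjusted p of 0.05, and no gene crosses 0.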

How the data were processed

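Liver poly(A) RNA was sequenced in 9 libraries, and groups and library numbers came from the sample labels. The authors deposited estimated counts per gene, and the submitters' processing notes name Salmon and GRCm38. For Salmon's version, its settings, the annotation and any use of strand in counting, the entry is: not given in the sources used here. The values were whole numbers as deposited and were used unrounded. All 54393 identifiers occur in GENCODE M21, which gave symbols, positions and exon lengths. The library kit is stranded, per the labels' protocols. BLAST+ 2.17.0 found a close copy (at least 95% identity over 200 bases) for 1 of the 9 genes, Cdkn1a, which is the overlapping AC167363.2.

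Genes were filtered with filterByExpr of edgeR 4.0.16 in R 4.3.3 (minimum count 10, minimum total 15), which left 14873. TMM-scaled counts were fitted with edgeR's quasi-likelihood test with group as the only term, over the whole table, with Benjamini-Hochberg adjustment over all tested genes and a threshold of 0.05. CPM are on TMM-scaled libraries, and log2 CPM used a prior count of 2. SE is the log2 fold change over the square root of F. The test was checked on simulated counts. Named genes are the 9, up to 4 of each gene list with the smallest p, a few fixed genes and nearest profiles; others are marked. Alternatives tried were DESeq2 1.42.0, limma-voom (limma 3.58.1), upper-quartile or RLE scaling, no filter, a filter at 1 CPM, a replicate block, thinning, library sizes without the 10 most abundant genes and omission of each library.

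The 9 genes and the lists were chosen with earlier results of these data known. Whether every library came from a different mouse is not in the labels, and p-values here measure only spread among the 9 libraries, which may be technical. No 2 libraries of a group agreed within sampling noise (lowest chi-square per degree of freedom 18.5). Library totals of 15422891 to 59179622 limit precision for genes with few counts.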

Additional observations from a re-analysis of the deposited data

Results flagged for a closer look

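Within a group of 4 or 5 libraries, the highest or lowest value was looked for that lay far from the rest by Dixon's ratio. Chance gives about 1 in 20 groups such a value. Of 132 groups looked at, 11 had one.

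Among the 9 genes, Sgk1 in antibiotics library 1 was low at 8.89 CPM, where the other 3 were between 10.66 and 10.72 CPM. Gadd45b in control library 4 was high at 0.726 CPM against 0.272 to 0.368 CPM, a difference between 32 counts and 8 to 17 counts.

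Control library 1 was high for Srd5a1 (123 CPM), Ndrg2 (903 CPM) and Aco1 (217 CPM). Control library 2 was low for Nfil3 (15.2 CPM) and high for the summed T and NK cell markers (11.0 CPM) and the summed Kupffer cell markers (524 CPM). Control library 3 was high for Usp2 (34.6 CPM), control library 5 low for Cdkn1b (13.0 CPM), and antibiotics library 1 low for the summed stellate cell markers (162 CPM).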

How the results depend on the processing

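Each of the 9 genes kept its direction in all 18 alternatives (15 for Gadd45b, which a filter at 1 CPM and thinning removed and which DESeq2 gave no adjusted p). The count of the 9 past the threshold, 0, became 1 with DESeq2 and 1 without a filter, Fkbp5 both times. With DESeq2 the other counts were 976 genes in all (398 as reported), 5 of the other induced genes, 5 chaperones and cofactors and 1 gene of hormone metabolism. Without a filter 1 chaperone or cofactor passed, and after thinning 5 other induced genes. Leaving out 1 library gave 36 to 455 genes in all and 0 to 6 other induced genes, with 0 of the 9 genes each time. With the replicate number as a block 169 genes passed in all and 1 gene of hormone metabolism, Akr1d1. The labels do not say whether same-numbered libraries share anything but the number. Their deviations correlated across genes from -0.06 to 0.10, and 2 of 4 antibiotics libraries correlated best with the control of their own number. The block changed no call among the 9 genes and gave Fkbp5 a log2 fold change of 0.76 (adjusted p = 0.0955). Of 11 other listed and named genes called by edgeR it ended 4 calls, Igfbp1 (0.108), Sesn2 (0.0745), Nedd4l (0.0724) and Wee1 (0.0542), and it added 2, Akr1d1 (0.0473) and Dusp1 (0.0306). Fewer libraries enter each omission; other causes were not tested. Low counts limit Gadd45b and spread between libraries limits Cdkn1a, Tsc22d3 and Zbtb16.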
